A study of Rattus norvegicus with 24 samples.

Results

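Messenger RNA levels of potassium channel genes were compared across 6 regions of the rat brain and across 4 groups of rats. The genes were those whose symbol begins with Kcn, the prefix for potassium channel subunits and the proteins that assemble with them. Of 74 such genes on the Affymetrix Rat RAE 230 2.0 array, covered by 125 probe sets, 59 reached a signal of 100 or more on at least 3 of 24 arrays and are described here, out of 14217 genes on the array. Each gene is represented by its brightest probe set. A gene was tested where the mean of log2(signal + 1) over the 24 arrays was at or above the median of all probe sets, a signal of about 116. By that rule 37 of the 59 genes were tested and 22 are given as values only. A gene that is bright in 1 region can pass through that region alone. The other 15 genes stayed below the signal rule. Just outside it was Kcnj1, with 2 arrays at 100 or more and a highest signal of 124. Just inside it, with 3 arrays each, were Kcnk9, Kcnj10, Kcne3, Kcnh7 and Kcnh2, with highest signals of 176, 188, 154, 120 and 109.

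The series holds RNA from 28 male rats whose brains were taken at postnatal day 55 to 65. The spontaneously hypertensive rat (SHR, 8 rats) is an inbred line used as a model of attention deficit hyperactivity disorder, and the Wistar-Kyoto rat (WKY, 8 rats) is the related control strain. Sprague-Dawley rats (SD, 8 rats) are an outbred stock, and 4 further SD rats had been exposed to polychlorinated biphenyls, which are persistent industrial pollutants (SD-PCB). The congeners, the dose and the time of exposure are not stated in the labels. From each group 1 array was made for each of 6 regions: prefrontal cortex, dorsal striatum and ventral striatum, hippocampus, the midbrain area of the substantia nigra and ventral tegmental area (substantia nigra/VTA), and the cerebellar vermis. Each region therefore rests on 4 arrays from 4 groups of rats, and each group on 6 arrays from 6 regions, which can be of the same rats. The labels do not say if an array holds RNA of 1 rat or of a pool, so p-values for groups measure agreement between regions and not between animals.

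Potassium channels let potassium leave the cell, which ends action potentials and holds the membrane near rest. Voltage-gated Kv channels are tetramers of alpha subunits, to which beta subunits and calcium-binding KChIP proteins attach. Inward rectifiers and K2P leak channels set the resting potential, and some inward rectifiers open on binding G proteins downstream of dopamine and other transmitter receptors. BK and sodium-activated channels respond to ions that enter during firing. Striatal projection neurons are known for a very negative resting potential that depends on inward rectifiers, and cerebellar neurons for fast spikes that depend on Kv3 channels.

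The regions matched their labels by marker genes. All 7 tested markers of striatal projection neurons were higher in both striatal regions, with a summed signal of 34897 to 42362 in the dorsal striatum, 26532 to 30836 in the ventral striatum and at most 4243 elsewhere. All 6 tested cerebellar markers were higher in the vermis. Of the other neuron lists, 4 of 4 tested cortical markers were higher in the prefrontal cortex and 3 of 4 were in the hippocampus for its own list. For dopamine neurons 3 of 4 were higher in the substantia nigra/VTA. A pair of arrays stood apart from their region by neuron markers. The WKY prefrontal cortex array carried Gabra6, a cerebellar granule cell receptor subunit, at 2297 and Pcp2, a Purkinje cell gene, at 668, against at most 97.0 and 76.2 on the other 3 prefrontal arrays and about 22310 and 12009 on the WKY vermis array. The SD-PCB substantia nigra/VTA array had Th, which makes the dopamine precursor, at 217 and Slc6a3, the dopamine transporter, at 955, against at least 1367 and 5916 on the other 3. The SD-PCB vermis array had the highest summed choroid plexus signal of all arrays, 21179, where vermis arrays began at 397. It also had the highest summed blood signal, 14873, where they began at 2695. Its part in the differences was not tested, and it was left out only with its whole region or group. The counts of channel genes without the WKY prefrontal or the SD-PCB substantia nigra/VTA array are given with the regions and groups they touch. The median signal of the arrays also differed between groups, at 131 to 184 for SD, 89.0 to 126 for SD-PCB, 132 to 178 for SHR and 109 to 153 for WKY.

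Most potassium channel genes differed between regions. Of the 37 tested, 27 differed in at least 1 region from the mean of the other 5, with a log2 difference of 1 or more and an adjusted p below 0.05, against 22.3% of the 15521 probe sets tested. The standard deviation of the 6 region means was above that of the 4 group means for 33 of 37 genes, or 89.2%, and for 53.6% of all probe sets. Its median was 0.76 on the log2 scale for the channel genes and 0.31 for all probe sets, whereas the median for the group means was 0.27 and 0.28. In these tissue pieces a smaller number of cells of a type and less RNA per cell cannot be told apart. A fold stands for 2 to the power of the log2 difference, and near the bottom of the scale it depends on the pseudocount. With pseudocount 16 in place of 1, 70 region results stayed the same and 7 weakened. The prefrontal cortex then had 6 genes called (4.14% of all probe sets) and the vermis 12 (14.1%).

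The dorsal striatum had 8 channel genes higher and 7 lower, where 5.16% of all probe sets were called, 3.09% higher and 2.07% lower. In the ventral striatum 6 were higher and 1 lower, against 2.04% of all probe sets, 1.60% and 0.432% by direction. Without the SD-PCB arrays 4 genes were called there in place of 7 (1.98% of all probe sets). The prefrontal cortex had 8 higher and 1 lower, against 4.72%, with 2.83% and 1.88% by direction. Without the WKY prefrontal array it had 7 higher and 3 lower (4.88% of all probe sets). With arrays centred on their medians 9 were higher there and 0 lower (5.53%), and with quantile normalization 7 and 0 (4.26%). The hippocampus had 5 higher and 2 lower, against 2.83%, with 1.94% and 0.889% by direction. The substantia nigra/VTA ran the other way, with 2 higher and 9 lower, against 7.44%, with 2.79% and 4.65% by direction. It had 4 higher and 9 lower both without the SD-PCB array of that region (9.07% of all probe sets) and with centred arrays (8.03%). The vermis had 3 higher and 11 lower, against 15.3%, with 6.30% and 9.02% by direction. Both striatal regions against the other 4 gave 8 higher and 6 lower, against 5.01% of all probe sets, 3.41% and 1.60% by direction.

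**Figure D1:**
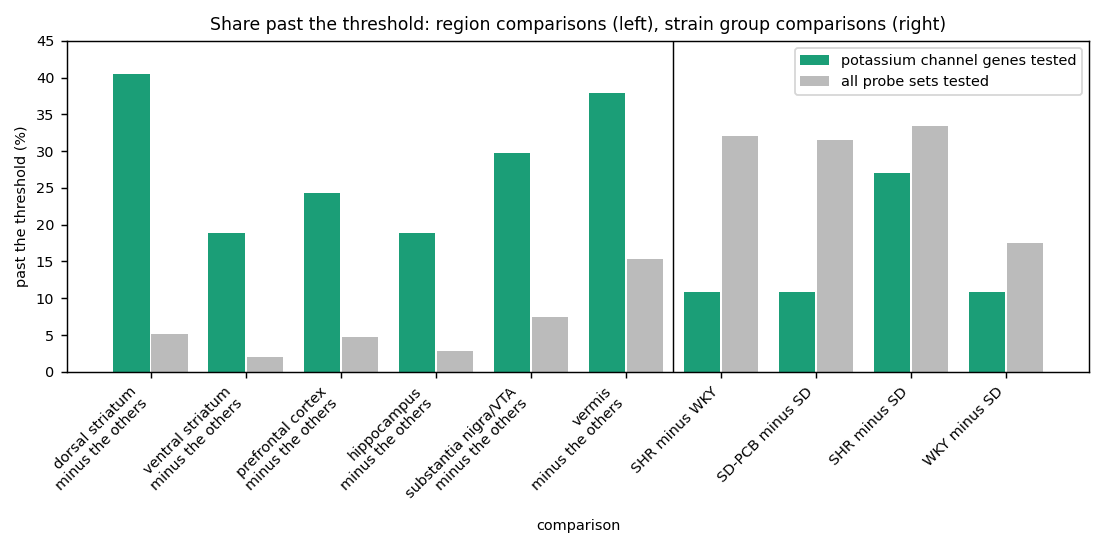
Percent of the 37 tested potassium channel genes (green bars) and of all 15521 tested probe sets (grey bars) past the threshold in each comparison; regions need a log2 difference of 1 or more and an adjusted p below 0.05, groups of rats an adjusted p under 0.05. The green bars are taller in all 6 region comparisons and shorter in all 4 comparisons of groups.

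The median log2 difference of the 37 genes was lowest in the substantia nigra/VTA at -0.30 and highest in the hippocampus at 0.23. It was 0.19 in the prefrontal cortex, 0.09 in the vermis, 0.07 in the dorsal and -0.05 in the ventral striatum. Over all probe sets it lay between -0.023 and 0.018.

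**Figure D2:**
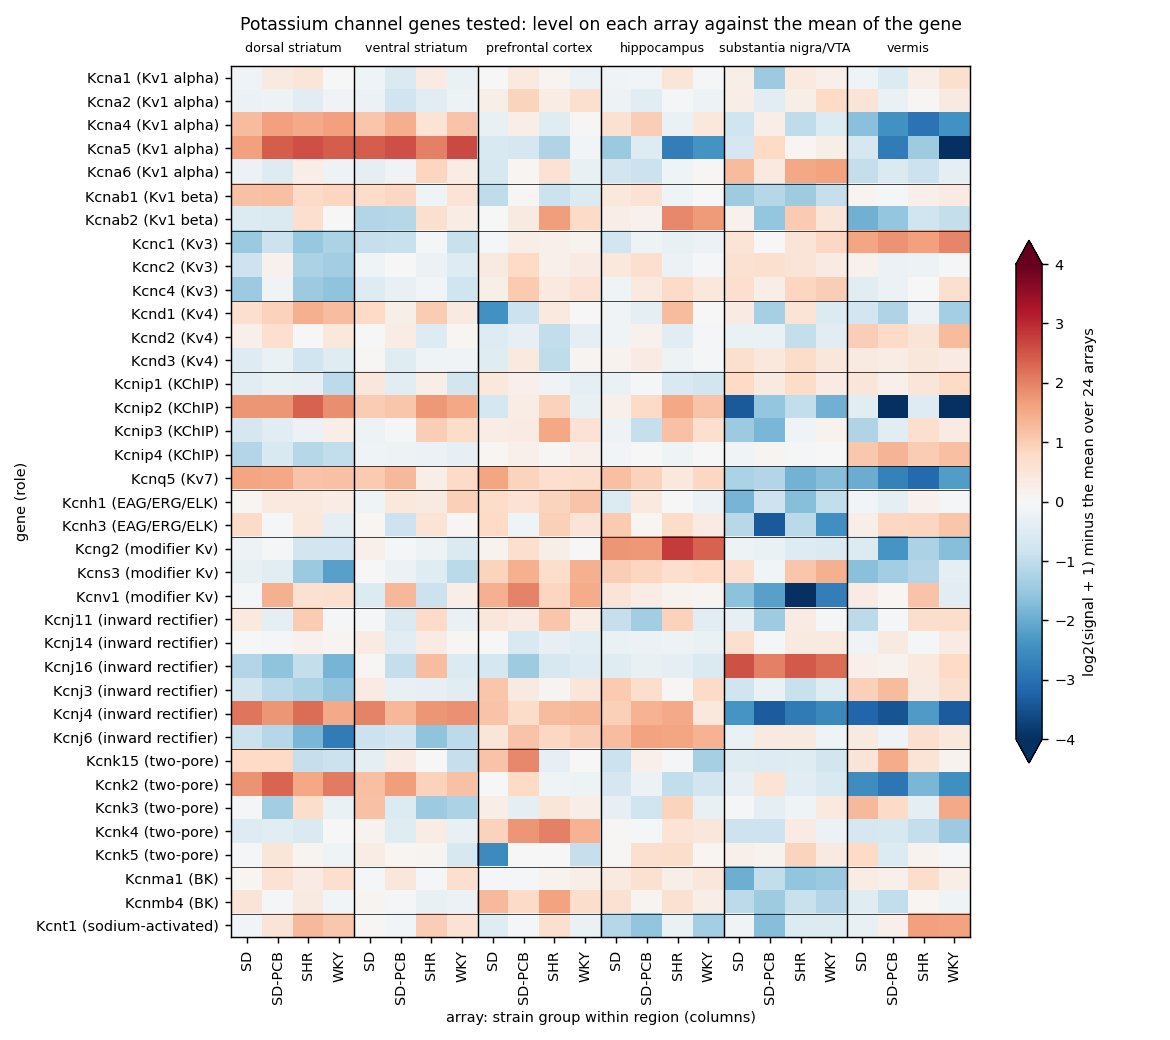
Level of the 37 tested potassium channel genes (rows, ordered by role) on the 24 arrays (columns, 4 groups within each region), as log2(signal + 1) minus the mean of the gene over all arrays; red is above and blue below that mean, and the colour scale ends at 4 and -4. Blocks of 4 columns share a colour for Kcna5, Kcnj4 and Kcnk2 in the striatum and for Kcnj16 in the substantia nigra/VTA.

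The promoters of the 4 genes with the largest differences in the dorsal striatum, and of Kcnc1, the gene that rose most in the vermis, are shown so that the genes can be located. Each line gives the 250 bases before a transcript start that RefSeq lists, the first in its table where there are several, 5' to 3' on the strand of the gene in rat build GRCr8. They are Kcna5 at chr4:161043810-161044059 (minus strand), Kcnj4 at chr7:112954548-112954797 (minus), Kcnk2 at chr13:103438643-103438892 (minus), Kcnip2 at chr1:254613899-254614148 (minus) and Kcnc1 at chr1:106038997-106039246 (plus). The stretches of Kcnj4 and Kcnc1 abut the gene, whereas those of Kcna5, Kcnip2 and Kcnk2 lie inside it, since the gene of each begins further upstream, at 161044311, 254614437 and 103494686. Capitals mark a GC box, GGGCGG on either strand.
Kcna5: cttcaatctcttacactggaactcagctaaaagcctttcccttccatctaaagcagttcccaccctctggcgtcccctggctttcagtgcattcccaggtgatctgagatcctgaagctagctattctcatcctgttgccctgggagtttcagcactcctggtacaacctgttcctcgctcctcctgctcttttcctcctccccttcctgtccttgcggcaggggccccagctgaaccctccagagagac
Kcnj4: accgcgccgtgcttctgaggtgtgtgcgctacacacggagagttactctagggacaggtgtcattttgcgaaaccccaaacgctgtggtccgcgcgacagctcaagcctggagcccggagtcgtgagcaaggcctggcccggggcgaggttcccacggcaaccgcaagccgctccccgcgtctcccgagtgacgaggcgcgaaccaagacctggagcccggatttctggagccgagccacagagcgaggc
Kcnk2: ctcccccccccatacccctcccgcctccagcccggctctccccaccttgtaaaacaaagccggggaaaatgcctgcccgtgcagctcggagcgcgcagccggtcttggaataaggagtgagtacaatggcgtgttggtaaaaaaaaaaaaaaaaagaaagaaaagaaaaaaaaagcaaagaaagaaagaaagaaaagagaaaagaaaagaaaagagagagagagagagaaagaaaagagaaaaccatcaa
Kcnip2: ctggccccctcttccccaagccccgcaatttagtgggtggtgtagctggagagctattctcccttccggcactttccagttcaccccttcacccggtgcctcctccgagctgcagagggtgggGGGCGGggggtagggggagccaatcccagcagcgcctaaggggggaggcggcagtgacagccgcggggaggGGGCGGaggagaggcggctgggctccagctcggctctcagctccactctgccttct
Kcnc1: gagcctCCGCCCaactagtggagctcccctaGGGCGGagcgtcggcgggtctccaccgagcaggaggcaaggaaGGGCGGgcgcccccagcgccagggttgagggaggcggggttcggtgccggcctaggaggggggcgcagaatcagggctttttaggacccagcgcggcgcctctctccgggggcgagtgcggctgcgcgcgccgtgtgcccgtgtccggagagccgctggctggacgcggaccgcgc
The GC box was found 2 times before Kcnip2, 3 times before Kcnc1 and 0 times before the other 3. Promoters of 41 of the 59 genes were in the table, and 23 of them held a GC box, against 32.4% of 27457 promoters, 1 for each gene. Their median GC content was 64%, against 52% for all promoters. The letters TATAAA, of the TATA box, were in 0 of the 41 and in 13.1% of all, CACGTG, the E-box, in 2 and in 5.79%, and TGACGTCA, the cAMP response element, in 0 and in 1.70%, with both strands searched. A match describes letters and is no site of binding.

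Among the Kv1 alpha subunits, Kcna5 and Kcna4 were high in the striatum and Kcna6 in the substantia nigra/VTA, while Kcna1 and Kcna2 passed the threshold in no region. Kcna5 is a delayed rectifier best known from heart muscle. Its signal in SD, SD-PCB, SHR and WKY was 420, 719, 802 and 716 in the dorsal striatum and 721, 803, 545 and 838 in the ventral striatum. Every striatal array lay above every other array, of which the highest was SD-PCB substantia nigra/VTA at 233. Both striatal regions together exceeded the other 4 by 3.52 ± 0.36 (log2 difference ± SE of the fit, 4 arrays per region, adjusted p = 4.9e-08), an 11.4-fold difference. By the fit the lowest level was in the vermis, at 82.7, 18.3, 49.0 and 4.49, with a difference of -2.85 ± 0.45 (adjusted p = 1.4e-05). The hippocampus arrays read 47.3, 93.1, 18.7 and 24.4. The vermis was thus below the hippocampus in SD-PCB and WKY and above it in SD and SHR. With a group left out the vermis difference ran from -3.49 to -2.08. The hippocampus was also low with a difference of -2.14 ± 0.45 (adjusted p = 0.0021), but without the SHR arrays the adjusted p was 0.053. Without the SD-PCB arrays Kcna5 fell below the filter and was not tested.

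Kcna4 carries a fast inactivating current in axons. It read 5535, 7287, 6702 and 7288 in the dorsal striatum and 4955, 6299, 3399 and 5115 in the ventral striatum. Only the SHR ventral striatum array overlapped with other regions, since SD and SD-PCB hippocampus read 3540 and 4632. The difference for both striatal regions was 1.93 ± 0.12 (adjusted p = 1.8e-11). In the vermis it read 725, 429, 302 and 433, below every other array, at a difference of -2.84 ± 0.15 (adjusted p = 5.1e-13). Kcna6 read 2430, 1333, 2985 and 3110 in the substantia nigra/VTA, 1.44 ± 0.17 above the other regions (adjusted p = 9.7e-07), and its SD-PCB array overlapped with other regions. Kcna5, Kcna1 and Kcna6 are neighbours on chromosome 4 with 0 protein-coding genes between them. Of these 3, Kcna1 stayed level over all regions, between 515 and 2205, with its largest difference 0.21 ± 0.21 in the dorsal striatum (adjusted p = 0.54).

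Of the beta subunits, which attach to Kv1 channels in the cytoplasm and can speed their inactivation, Kcnab1 was high in the dorsal striatum. It read 7931, 8234, 6041 and 6481 there, 1.20 ± 0.14 above the other regions (adjusted p = 9.1e-07), and overlapped only with the SD-PCB array of the ventral striatum, at 6268. In the substantia nigra/VTA it fell by 1.46 ± 0.14 (adjusted p = 2.9e-08). Kcnab2 was highest in the hippocampus, at 786, 745, 2495 and 2142, 1.22 ± 0.20 above the other regions (adjusted p = 1.2e-04). There the SHR and WKY arrays were high and the SD and SD-PCB arrays lay among those of other regions. In the vermis Kcnab2 was lower with a difference of -1.56 ± 0.20, but a second probe set of the gene was higher there, by 0.69 (adjusted p = 0.092).

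Kv3 channels close quickly and allow high firing rates. Kcnc1 read 10197, 11691, 10522 and 13125 in the vermis, above every other array, of which the highest was WKY substantia nigra/VTA at 6015. The difference from the other regions was 2.09 ± 0.14 (adjusted p = 2.0e-11), or 4.25-fold. It was low in the dorsal striatum, at 1223, 1875, 1193 and 1416 with a difference of -1.53 ± 0.14 (adjusted p = 2.4e-08). Kcnc4 was likewise low in the dorsal striatum, at 609, 1510, 605 and 549 with a difference of -1.41 ± 0.20 (adjusted p = 1.6e-05), and its SD-PCB array overlapped with other regions. Kcnc2 had an estimate of -0.999 ± 0.14 there (adjusted p = 9.0e-06), just short of the size required.

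Kv4 subunits carry the transient current of dendrites, and KChIP proteins set its density and recovery. Kcnd2 was highest in the vermis, at 7108, 6043, 5111 and 8600, 1.06 ± 0.087 above the other regions (adjusted p = 7.2e-10). Its SHR vermis array overlapped with SD-PCB dorsal striatum, at 5639. Without the WKY arrays the difference was 0.97, which ended the call. A second probe set of Kcnd2 gave 0.95 in the vermis, short of the size required. In the substantia nigra/VTA that probe set was lower, at -1.05 (adjusted p = 1.2e-07). Kcnd1 was highest in the dorsal striatum, at 243, 290, 414 and 362, 1.28 ± 0.30 above the rest (adjusted p = 0.0036), with overlap. Kcnd3 passed in no region by its brightest probe set, but a second one was lower in the dorsal striatum, at -1.28 (adjusted p = 3.2e-07). Kcnip4 read 12139, 14515, 11664 and 13029 in the vermis, higher there by 1.40 ± 0.070 (adjusted p = 1.5e-13), and 2525, 3779, 2611 and 2883 in the dorsal striatum, lower with a difference of -1.17 ± 0.070 (adjusted p = 3.6e-11). Neither set of 4 overlapped with the other regions. A second probe set of Kcnip4 was lower in the hippocampus, at -1.33 (adjusted p = 0.0085).

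Kcnip2, the KChIP best known from heart muscle, was high in the dorsal striatum. It read 541, 544, 818 and 588 there, above every other array, and 326, 343, 536 and 472 in the ventral striatum. Both striatal regions exceeded the other 4 by 2.47 ± 0.36 (adjusted p = 9.7e-06). In the ventral striatum alone the difference was 1.63 ± 0.45 (adjusted p = 0.025), with an adjusted p of 0.14 without the WKY arrays. It was low in the midbrain, at 14.5, 53.8, 80.3 and 41.4 with a difference of -2.35 ± 0.45, and in the vermis, at 116, 9.25, 111 and 7.19 with a difference of -2.77 ± 0.45. The 4 vermis arrays parted, with SD and SHR above 100 and SD-PCB and WKY far below. Kcnip1 and Kcnip3 passed in no region, although a second probe set of Kcnip1 was lower in the dorsal striatum, at -2.18 (adjusted p = 3.5e-04). That probe set was higher in the substantia nigra/VTA by 1.27 (adjusted p = 0.018) and in the vermis by 1.04 (adjusted p = 0.038).

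**Figure D3:**
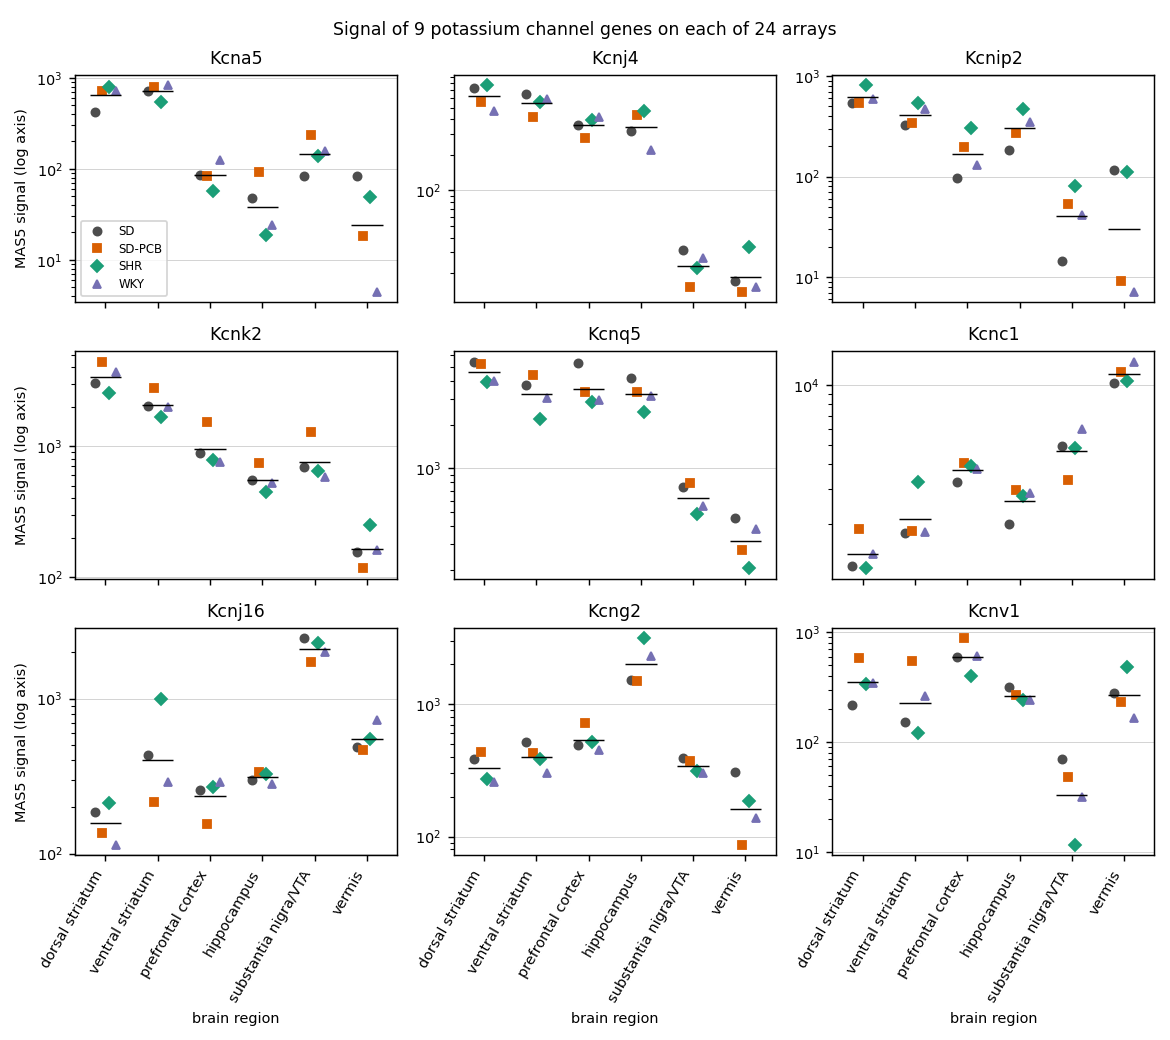
Signal (vertical axis, log scale) of 9 potassium channel genes on the 24 arrays by brain region; each point is 1 array, marked by group, and the bar is the geometric mean of the 4 arrays. Kcna5, Kcnj4, Kcnip2 and Kcnk2 are highest in the striatum, Kcnc1 in the vermis, Kcnj16 in the substantia nigra/VTA, Kcng2 in the hippocampus and Kcnv1 in the prefrontal cortex.

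Modifier subunits form no channel alone and change the currents of others. Kcng2 marked the hippocampus, at 1511, 1498, 3124 and 2303, above every other array, of which the highest was SD-PCB prefrontal cortex at 714. The difference was 2.61 ± 0.22 (adjusted p = 2.8e-08), a 6.09-fold level. Kcnv1 was high in the prefrontal cortex, at 592, 881, 400 and 616, by 1.72 ± 0.33 (adjusted p = 4.9e-04), and low in the substantia nigra/VTA, at 69.9, 48.0, 11.5 and 31.5 with a difference of -3.22 ± 0.33 (adjusted p = 7.4e-08). The arrays of the substantia nigra/VTA lay below every other array, whereas those of the prefrontal cortex overlapped. Kcns3 was higher in the prefrontal cortex by 1.33 ± 0.29 (adjusted p = 0.0019), at 549, 785, 479 and 784, with overlap. Its highest array was WKY substantia nigra/VTA at 791, and the hippocampus arrays read 466 to 588. Kcns3 was lower in the vermis with a difference of -1.39 ± 0.29 and in the dorsal striatum with a difference of -1.31 ± 0.29, the latter -0.89 without the WKY arrays.

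The EAG and ELK channels open slowly at voltages near rest. Both tested genes were low in the substantia nigra/VTA. Kcnh3, an ELK channel, read 77.2, 15.6, 80.4 and 30.3 there and at least 95.9 on every other array, with a difference of -2.40 ± 0.26 (adjusted p = 1.7e-07). In the vermis Kcnh3 read 205, 298, 306 and 370, the last the highest of all arrays. Kcnh1 read 85.0, 174, 94.9 and 157 in the substantia nigra/VTA, below every other array, at -1.60 ± 0.17 (adjusted p = 2.1e-07). In the prefrontal cortex Kcnh1 was higher by 1.001 ± 0.17, and by 0.96 without the WKY prefrontal array. Leaving out 1 group gave 0.92 to 1.14 and ended the call in 3 of 4 fits. These arrays overlapped with WKY ventral striatum, at 601. Kcnq5, a subunit of the M current that muscarinic receptors close, was high in the 4 forebrain regions. It read 5425, 5212, 3949 and 4007 in the dorsal striatum, 1.63 ± 0.12 above the rest (adjusted p = 9.1e-10). It read 746, 791, 485 and 549 in the substantia nigra/VTA, and the vermis arrays read 457, 276, 205 and 383. The vermis was lowest on all arrays with a difference of -3.005 ± 0.12 (adjusted p = 2.2e-15), an 8.03-fold difference, the smallest p of any channel gene.

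Inward rectifiers parted by region. Kcnj4, a strong rectifier that clamps neurons near rest, read 728, 561, 776 and 472 in the dorsal striatum and 648, 415, 556 and 586 in the ventral striatum. Against this it read 31.4, 15.5, 22.1 and 26.7 in the substantia nigra/VTA, and the vermis arrays read 17.2, 14.0, 33.5 and 15.3. The 16 forebrain arrays all lay above these 8, the lowest being WKY hippocampus at 221. Both striatal regions exceeded the other 4 by 2.73 ± 0.17 (adjusted p = 1.8e-11), and the dorsal striatum alone the other 5 by 2.30 ± 0.22. The vermis was lower with a difference of -3.67 ± 0.22 (adjusted p = 2.3e-12), a 12.7-fold difference, and the substantia nigra/VTA with a difference of -3.32 ± 0.22 (adjusted p = 6.7e-11).

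Kcnj16 forms pH-sensitive channels with a partner rectifier in glia and kidney. It marked the substantia nigra/VTA, at 2438, 1707, 2278 and 1987, with no overlap, since the next array was SHR ventral striatum at 990. The difference was 2.78 ± 0.21 (adjusted p = 7.0e-10), or 6.86-fold. Oligodendrocyte and astrocyte markers overlapped between regions, with summed signals of 35136 to 66396 and 45805 to 74194 in the substantia nigra/VTA against 20649 to 52305 and 39197 to 81713 elsewhere, and their part in this difference was not tested. Kcnj16 was lowest in the dorsal striatum, at 186, 137, 213 and 114 with a difference of -1.68 ± 0.21 (adjusted p = 2.4e-06).

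Kcnj3 and Kcnj6 encode the G protein gated rectifiers that dopamine D2 and other receptors open, and both were low in the dorsal striatum. Kcnj6 read 290, 238, 146 and 75.0 in the dorsal and 289, 315, 170 and 254 in the ventral striatum, below every array of the other 4 regions, at -2.03 ± 0.18 (adjusted p = 4.6e-09). It was highest in the hippocampus, at 1243, 1616, 1564 and 1385, by 1.75 ± 0.22 (adjusted p = 6.7e-06). Dopamine neurons are known for Kcnj6, and the substantia nigra/VTA arrays read 439, 671, 671 and 462, overlapping with the vermis at 478 to 819; Th and Slc6a3 were low on the SD-PCB array among these. Kcnj3 read 169, 135, 117 and 94.3 in the dorsal striatum, lower with a difference of -1.40 ± 0.17 (adjusted p = 1.1e-06), and overlapped with the substantia nigra/VTA at 154 to 234. Kcnj11, the pore of ATP-sensitive channels, and Kcnj14 passed in no region.

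Among the K2P leak channels, Kcnk2, which responds to stretch, lipids and G proteins, followed the striatum. It read 3050, 4414, 2557 and 3708 in the dorsal and 2031, 2779, 1656 and 1995 in the ventral striatum, above every other array, of which the highest was SD-PCB prefrontal cortex at 1532. Both regions exceeded the other 4 by 2.38 ± 0.14 (adjusted p = 5.3e-12). The vermis, at 155, 117, 249 and 160, was below every other array with a difference of -2.90 ± 0.18 (adjusted p = 4.0e-12). Kcnk4, a relative of Kcnk2, instead marked the prefrontal cortex, at 266, 480, 575 and 374, with no overlap and a difference of 1.83 ± 0.24 (adjusted p = 4.7e-06). Kcnk5 was lower there with a difference of -1.05 ± 0.31 (adjusted p = 0.017), which rested on the SD array at 25.05 beside 150, 154 and 80.3; without the SD arrays the difference was -0.46 (adjusted p = 0.19). Kcnk3 and Kcnk15 passed in no region.

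The pore of the BK channel, Kcnma1, was low in the substantia nigra/VTA. It read 531, 1043, 691 and 734 there, below every other array with a difference of -1.81 ± 0.12 (adjusted p = 1.3e-10). Its neuronal auxiliary subunit Kcnmb4 was also low there, at 172, 131, 191 and 157 with a difference of -1.37 ± 0.15 (adjusted p = 1.8e-07), and overlapped only with the SD-PCB vermis array. In the prefrontal cortex Kcnmb4 was higher by 1.31 ± 0.15 (adjusted p = 7.4e-07), at 877, 601, 1078 and 582, above every other array, while Kcnma1 was not called there. A second probe set of Kcnma1 was higher in the prefrontal cortex by 1.18 (adjusted p = 0.025). The sodium-activated channel Kcnt1 was low in the hippocampus, at 294, 216, 546 and 251 with a difference of -1.31 ± 0.23 (adjusted p = 2.9e-04), with overlap.

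The 22 untested genes were dim. Their median on an array was 81.3 to 101 for SD, 39.0 to 59.0 for SD-PCB, 56.0 to 114 for SHR and 49.0 to 65.7 for WKY. The groups with low medians were those whose whole arrays had low medians, as the plot of both values shows, so no difference between groups is drawn for these genes; the part of the array median was not tested. By region, Kcnh4, another ELK channel, read 185, 186, 314 and 271 in the dorsal striatum and 23.1 to 81.9 in the substantia nigra/VTA. Kcnk10, a K2P channel, read 298, 193, 302 and 313 in the vermis and at most 165 elsewhere. Kcns1 was highest on the SD-PCB and SHR prefrontal arrays, at 378 and 333, beside 129 and 85.0 for SD and WKY. Kcnn3, a small-conductance calcium-activated channel of dopamine neurons, read 24.8, 70.7, 60.2 and 113 in the substantia nigra/VTA, within the 66.6 to 143 of the dorsal striatum on 2 of 4 arrays. All 3 KCNE subunits, the only Kv2 gene kept, Kcnb2, and Kcnq3 were in this dim set.

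**Figure D4:**
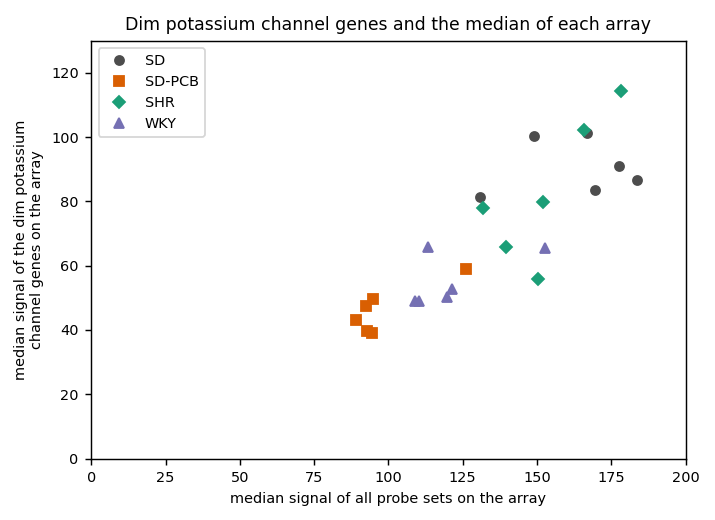
Median signal of the 22 dim potassium channel genes on an array (vertical axis) against the median signal of all probe sets on the same array (horizontal axis); each point is 1 of 24 arrays, marked by group. The SD-PCB arrays span 39.0 to 59.0 and 89.0 to 126 and overlap with those of WKY, at 49.0 to 65.7 and 109 to 153, while the SD arrays span 81.3 to 101 and 131 to 184.

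Of 30 tested genes of proteins that hold or regulate these channels, 4 passed in the substantia nigra/VTA, 1 higher and 3 lower, where 7.44% of all probe sets passed. In the vermis 4 were lower (15.3% passed of all), and in both striatal regions together 3 were higher (5.01%). The hippocampus had 0 (2.83%), the prefrontal cortex 1 (4.72%), the dorsal striatum 2 (5.16%) and the ventral striatum 1 (2.04%). Of 10 tested genes that cluster and anchor Kv1 channels 1 was lower in the substantia nigra/VTA (Dlg2, a scaffold, at -1.18) and 1 lower in the vermis (Cntnap2, at -1.13), and 0 passed in the other regions. Of 6 auxiliary proteins of Kv4 and Kv2, Dpp10 was higher in the prefrontal cortex by 1.30 and Amigo2 higher in the substantia nigra/VTA by 1.57 and in both striatal regions by 1.01, and lower in the vermis, at -3.28. Of 5 regulators, the anchoring protein Akap5 was higher in both striatal regions by 2.41 and the ubiquitin ligase Nedd4l by 1.28, each with an adjusted p of at most 4.2e-07, and both were lower in the substantia nigra/VTA and the vermis. Of 5 potassium pump and cotransporter genes, and of 4 partners of ATP-sensitive, BK and inward rectifier channels, 0 passed in any region.

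Fewer channel genes passed the threshold between groups of rats. In SHR against WKY 1 of 37 was higher and 3 lower at an adjusted p under 0.05, where 32.0% of all probe sets were called, 16.4% higher and 15.7% lower. In SD-PCB against SD 2 were higher and 2 lower, against 31.5%, with 14.7% and 16.9% by direction. In SHR against SD 6 were higher and 4 lower, against 33.4%, with 18.9% and 14.5% by direction, and in WKY against SD 2 and 2, against 17.5%, with 8.92% and 8.63% by direction. The last 3 comparisons share the SD arrays, and SHR and WKY arrays each enter more than 1 comparison, so their calls are not independent. Centring each array on its median moved the median of all probe sets by -0.34 in SHR against WKY, 0.72 in SD-PCB against SD and 0.43 in WKY against SD. With the array median as a covariate 0 channel genes passed in these 3 comparisons, where 5.49%, 0% and 0.477% of all probe sets passed. In SHR against SD 9 passed, against 28.9%.

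In SHR against WKY, the dendritic channel Kcnd2 fell in all 6 regions. Its lowest, median and highest signals were 1798, 2567 and 5111 in SHR and 2650, 3603 and 8600 in WKY. Within regions the difference ran from -0.75 in the vermis to -0.38 in the hippocampus, and the fit gave -0.56 ± 0.092 (adjusted p = 1.7e-04), a 1.47-fold difference. Leaving out any 1 region kept the call, with a highest adjusted p of 0.0022, and a second probe set of Kcnd2 gave -0.52 (adjusted p = 0.0022). With the array median as a covariate the difference was -0.37 (adjusted p = 0.16). The axonal channel Kcna4 was lower in SHR with a difference of -0.49 ± 0.16 (adjusted p = 0.026), with medians of 1781 and 2754 and differences of -0.70 to -0.12 within regions. Kcnq5 was lower with a difference of -0.34 ± 0.13 (adjusted p = 0.043), with medians of 2302 and 3014, and its difference was close to 0 in the dorsal striatum and prefrontal cortex and -0.90 in the vermis. All 3 genes ranged widely between regions, so the signals of the groups overlapped and the difference lies within regions.

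Kcnj11, the pore of ATP-sensitive channels, was the gene that rose in SHR against WKY. It read 253, 362 and 440 (lowest, median, highest) in SHR and 148, 197 and 332 in WKY, 0.77 ± 0.25 higher (adjusted p = 0.023). Both vermis arrays read 332, and the largest difference, 1.35, was in the hippocampus. Its second probe set gave 0.28 (adjusted p = 0.40). Leaving out 1 region ended the calls of Kcna4, Kcnq5 and Kcnj11 in several cases, with highest adjusted p of 0.091 without the ventral striatum, 0.12 without the vermis and 0.088 without the hippocampus. Leaving out the dorsal striatum gave 2 (23.1% of all probe sets), the ventral striatum 1 (20.7%) and the hippocampus 1 (22.8%), all lower. The count was 7 without the vermis (36.9%), of which 5 were higher and 2 lower. It was 2 higher and 2 lower without the substantia nigra/VTA (25.4%). Without the WKY prefrontal array it was 3 (24.2%), with Kcna4 at an adjusted p of 0.062 and Kcnj11 at 0.064. Centred on array medians, 0 were higher and 10 lower, where 41.3% of all probe sets were called.

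Beside these, 4 of 5 tested vessel markers, 5 of 6 meningeal and 3 of 5 microglial markers were higher in SHR than in WKY. Their medians were 1.27, 1.40 and 0.88 on the log2 scale, and 0 in these lists were lower. Of all probe sets 16.4% were higher. The summed vessel signal was 3264 to 6110 in SHR and 1342 to 3447 in WKY. The part of the markers in the differences of the channel genes was not tested.

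In SD-PCB against SD, Kcnmb4 was lower in all 6 regions. Its lowest, median and highest signals were 131, 342 and 601 in SD-PCB and 172, 444 and 877 in SD, at -0.45 ± 0.16 (adjusted p = 0.032). Kcnh3 was lower in 5 of 6 regions and higher in the vermis, with a fitted difference of -0.89 ± 0.27 (adjusted p = 0.015), with medians of 158 and 248 and a difference of -2.23 in the substantia nigra/VTA. Kcnma1, the BK pore that Kcnmb4 modulates, was higher in 5 of 6 regions by 0.36 ± 0.13 (adjusted p = 0.037), with medians of 2624 and 2102. Its second probe set gave -0.37 (adjusted p = 0.51). Kcnip4 was higher in 5 of 6 regions by 0.22 ± 0.074 (adjusted p = 0.026), with medians of 5948 and 5201.

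Each of these 4 calls ended without 1 or another region, while the differences kept their sign. They ranged from -1.18 to -0.63 for Kcnh3, from -0.50 to -0.42 for Kcnmb4, from 0.24 to 0.45 for Kcnma1 and from 0.15 to 0.27 for Kcnip4. The highest adjusted p was 0.066 for Kcnh3 and 0.19 for Kcnma1, both without the substantia nigra/VTA, 0.16 for Kcnip4 without the dorsal striatum and 0.092 for Kcnmb4 without the hippocampus. The count became 1 without the dorsal striatum (25.4% of all probe sets), 0 without the hippocampus (25.3%) and 1 without the substantia nigra/VTA (27.9%). Without the vermis it was 11 (33.2%), 7 higher and 4 lower. Without the SD-PCB substantia nigra/VTA array alone it was 3 (29.4%), all higher, with Kcnh3 and Kcnmb4 at an adjusted p of 0.050 and Kcnma1 at 0.12. Centred on array medians 25 genes were higher and 0 lower, where 74.3% of all probe sets were called. Kcnmb4 turned there to 0.28 (adjusted p = 0.13). By quantile normalization 4 were higher and 1 lower, against 24.5% of all probe sets. Vessel markers were higher in SD-PCB in 4 of 5 cases, and so was the 1 blood marker tested. Astrocyte markers were lower in 5 of 7 and oligodendrocyte markers in 3 of 6, with 0 the other way in these lists. Of all probe sets 14.7% were higher and 16.9% lower, and the part of the markers was not tested.

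Between SHR and SD 10 channel genes differed. The beta subunit Kcnab2 read 379, 1202 and 2495 (lowest, median, highest) in SHR and 174, 544 and 786 in SD, higher by 1.40 ± 0.21 in all 6 regions (adjusted p = 3.1e-05). Kcnip3, a KChIP that is also known as a transcriptional repressor, read 344, 717 and 1168 in SHR and 146, 301 and 496 in SD, higher by 1.23 ± 0.21 in all 6 regions (adjusted p = 1.3e-04). Kcnj11 was higher by 1.07 ± 0.25 (adjusted p = 0.0024), with medians of 362 and 174. Kcnd1 was higher by 0.995 ± 0.32 (adjusted p = 0.020), with medians of 265 and 164, and its difference of 2.83 in the prefrontal cortex rested on the SD array at 27.4. Kcnt1, higher in 5 of 6 regions by 0.99 ± 0.24 (adjusted p = 0.0033), was lower in the substantia nigra/VTA. Kcna6 was higher in all 6 regions by 0.66 ± 0.18 (adjusted p = 0.0083).

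The genes that fell in SHR against SD were Kcnq5, at -0.78 ± 0.13 (adjusted p = 7.3e-05), Kcnj3, at -0.64 ± 0.17 (adjusted p = 0.0077), Kcnd2, at -0.44 ± 0.092 (adjusted p = 9.6e-04), and Kcna4, at -0.47 ± 0.16 (adjusted p = 0.030). Kcnq5 had medians of 2302 in SHR and 3962 in SD, Kcnj3 of 261 and 450, Kcnd2 of 2567 and 3332, and Kcna4 of 1781 and 2708. The first 3 fell in all 6 regions, and Kcna4 rose in the dorsal striatum. Of the 10 calls, those of Kcna4, Kcnd1 and Kcna6 ended when 1 region was left out, with highest adjusted p of 0.14 and 0.082 without the hippocampus and 0.063 without the ventral striatum. The second probe set of Kcnj11 gave 0.34 (adjusted p = 0.30) and that of Kcnd2 -0.37 (adjusted p = 0.018). Of the markers, 4 of 5 for vessels were higher in SHR than in SD and 1 lower (median 0.65). For astrocytes 2 of 7 were higher and 5 lower (median -0.52). Of all probe sets 18.9% were higher and 14.5% lower, and the part of the markers was not tested. In the fits with quantile normalization 6 channel genes were higher and 4 lower (34.7% of all probe sets called), and with centred arrays 6 and 3 (31.7%).

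In WKY against SD Kcnip3 was higher by 1.03 ± 0.21 (adjusted p = 0.0014) and Kcnab2 by 0.92 ± 0.21 (adjusted p = 0.0032), each in all 6 regions. Kcnip3 read 443, 555 and 676 (lowest, median, highest) in WKY against 146, 301 and 496 in SD, and Kcnab2 337, 863 and 2142 against 174, 544 and 786. Set side by side, Kcnip3 was 1.23 above SD in SHR and 1.03 in WKY, and Kcnab2 1.40 and 0.92, with SD shared. The second probe set of Kcnab2 gave 0.39 and 0.22 in these comparisons (adjusted p = 0.42 and 0.72). Kcnq5 was lower in WKY than in SD with a difference of -0.44 ± 0.13 (adjusted p = 0.016) in all 6 regions, and Kcnip1 lower with a difference of -0.54 ± 0.16 (adjusted p = 0.020) in 5 of 6. The calls of Kcnq5 and Kcnip1 ended when 1 region was left out, with highest adjusted p of 0.086 without the prefrontal cortex and 0.11 without the ventral striatum. The count of 4 became 2 without the dorsal striatum (11.7% of all probe sets) and 2 without the prefrontal cortex (13.4%), all higher. Without the vermis it was 7 (19.5%), 5 higher and 2 lower. Centred on array medians 17 were higher and 0 lower (56.3%), and with quantile normalization 3 and 2 (14.3%). Without the WKY prefrontal array 3 were higher and 1 lower (14.1%), with Kcnq5 at an adjusted p of 0.050. The fit without the SD-PCB substantia nigra/VTA array gave 3 and 3 (19.2%). All 6 meningeal markers tested, 5 of 7 astrocyte, 3 of 5 vessel and 3 of 6 oligodendrocyte markers were lower in WKY than in SD. So were 2 of 4 markers of dopamine neurons, 1 of 4 of hippocampal neurons and the 1 blood marker tested. In these lists 0 were higher. Of all probe sets 8.63% were lower, and the part of the markers was not tested.

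**Figure D5:**
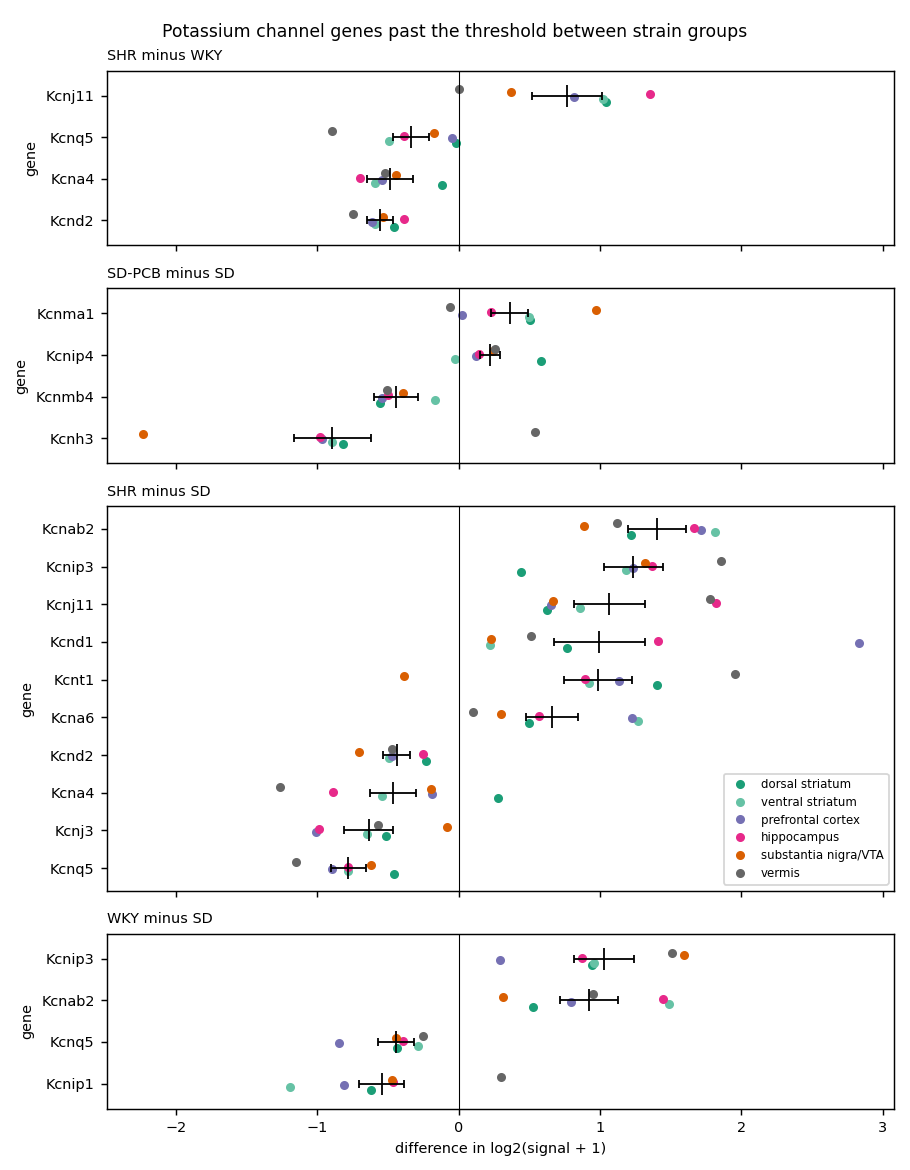
Difference in log2(signal + 1) for each potassium channel gene past the threshold in 4 comparisons of groups; coloured points are the 6 regions, the black tick is the fitted difference and its bar the standard error. The points of Kcnd2 lie together below 0 in SHR against WKY, between -0.75 and -0.38, while those of Kcnh3 in SD-PCB against SD spread from -2.23 to 0.54.

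The difference between SHR minus WKY and SD-PCB minus SD was tested as a contrast of its own. It was above 0 for 5 channel genes and below 0 for 5, against 40.4%, with 22.0% and 18.4% by direction, of all probe sets. The genes above were Kcnh3 (1.44 ± 0.38, adjusted p = 0.0050), Kcnj11 (1.10 ± 0.35, adjusted p = 0.017), Kcnj16 (0.86 ± 0.31, adjusted p = 0.032), Kcnmb4 (0.81 ± 0.22, adjusted p = 0.0056) and Kcnip1 (0.62 ± 0.23, adjusted p = 0.032). Those below were Kcna4 (-0.82 ± 0.23, adjusted p = 0.0068), Kcnd2 (-0.73 ± 0.13, adjusted p = 1.8e-04), Kcnab1 (-0.56 ± 0.21, adjusted p = 0.037), Kcnma1 (-0.53 ± 0.18, adjusted p = 0.025) and Kcnip4 (-0.33 ± 0.10, adjusted p = 0.015). Kcnd2 was lower in all 6 regions, and Kcnmb4 higher in all 6, while the others had 1 or 2 regions of the opposite sign. A second probe set gave -0.25 for Kcnd2 (adjusted p = 0.23), -0.37 for Kcnma1 (adjusted p = 0.61), 0.75 for Kcnj11 (adjusted p = 0.087), -1.43 for Kcnip1 (adjusted p = 0.062), -2.01 for Kcnip4 (adjusted p = 0.0028) and 2.15 for Kcnab2 (adjusted p = 0.0018). In the single comparisons, second probe sets were also called for Kcnip4 in SHR against WKY (-1.79), for Kcnip1 (1.40) and Kcnab2 (-1.98) in SD-PCB against SD, and for Kcnma1 (-1.26) and Kcnip4 (-1.26) in SHR against SD. Beside these genes, 5 of 7 astrocyte markers were above 0 (median 0.65), 5 of 6 of the meninges (1.87), 3 of 6 of oligodendrocytes (0.75) and 4 of 5 of microglia, and their part was not tested. The count of 10 became 5 without the dorsal striatum (34.3% of all probe sets) and 5 without the ventral striatum (30.2%). It was 6 without the substantia nigra/VTA (32.9%). The highest adjusted p with 1 region left out was 0.070 for Kcnj11 and 0.072 for Kcnip4, both without the dorsal striatum, 0.18 for Kcnj16, 0.23 for Kcnip1 and 0.14 for Kcnma1, all without the ventral striatum, and 0.14 for Kcnab1 without the prefrontal cortex. With quantile normalization 2 were above and 3 below 0, where 32.6% of all probe sets were called. With centred arrays 0 were above and 21 below, against 69.5%, and the median of all probe sets moved by -1.06.

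Of partner genes in the comparison of SHR with WKY, Amigo2, an adhesion protein that binds Kv2 channels, was lower with a difference of -1.41 ± 0.24, Ank3, the ankyrin that holds channels at the axon initial segment, at -1.18 ± 0.17, Wnk1, a kinase that regulates potassium transport, at -0.63 ± 0.10, and Atp1b1, a sodium pump subunit, at -0.47 ± 0.080. Each was lower in all 6 regions with an adjusted p of at most 2.6e-04. Over all lists 3 of 30 were higher and 8 lower, where 32.0% of all probe sets were called, 16.4% higher and 15.7% lower. By list, 0 of 6 were higher and 2 lower among Kv4 and Kv2 auxiliary proteins, 1 and 2 of 10 among Kv1 anchoring genes, 2 and 2 of 5 among pumps and cotransporters, 0 and 2 of 5 among regulators and 0 of 4 among partners of ATP-sensitive, BK and inward rectifier channels. In SD-PCB against SD, Amigo1 was higher by 0.69 ± 0.11 and Amigo2 by 0.79 ± 0.24, each in all 6 regions. Over all lists 5 of 30 were higher and 2 lower in that comparison, where 31.5% of all probe sets were called. In SHR against SD 2 of 30 were higher and 7 lower (33.4% of all probe sets), and in WKY against SD 3 and 3 (17.5%).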

How the data were processed

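RNA of 24 samples was hybridised to 24 one-colour Affymetrix Rat RAE 230 2.0 arrays; per the labels, total RNA was purified with RNeasy and labelled after Ovation amplification. The deposited values are linear signal intensity per probe set, made by the authors with MAS5 per the submitters' processing notes. The 2% trimmed mean of each array lies near 500, so arrays had been scaled. The depth of an array cannot be counted, and the number of arrays limits precision.

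The array table names 1 gene for 20826 probe sets, several for 436 and none for 9780. After 57 control probe sets were set aside, log2(signal + 1) was fitted for the 15521 probe sets in the upper part by mean, from the median up, with limma 3.58.1 (R 4.3.3), with group and region as terms and an intensity trend. Region is the number that pairs the samples across groups, since the labels put the same 6 regions in each group. Tests are two-sided, and p-values were adjusted over all probe sets tested by Benjamini-Hochberg. A region call also needed a log2 difference of at least 1. The fit was tested on simulated data.

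All genes of the rule could be named by role. Array values are given for the largest differences per region and for group calls of 1 sign in all 6 regions, together with probe sets that disagree and up to 3 partner genes per list. The genes and lists were chosen with earlier results of these data known. Alternatives were other scalings, pseudocount 16, other filters, array weights, the array median as covariate, a log2 threshold of 0.5 and each region or group left out. The fits without the WKY prefrontal or the SD-PCB substantia nigra/VTA array were added after seeing the data. All 59 genes matched the RefSeq annotation of GRCr8 by gene ID.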

Additional observations from a re-analysis of the deposited data

Results flagged for a closer look

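The difference between SHR minus WKY and SD-PCB minus SD passed the test of the difference itself (limma) for 10 of 37 channel genes. Of all probe sets 40.4% passed it. With the array median as covariate 0 channel genes and 0.0129% of all probe sets passed. The difference was 1.44 for Kcnh3, 1.10 for Kcnj11, 0.86 for Kcnj16, 0.81 for Kcnmb4 and 0.62 for Kcnip1. It was -0.82 for Kcna4, -0.73 for Kcnd2, -0.56 for Kcnab1, -0.53 for Kcnma1 and -0.33 for Kcnip4.

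Of 99 sets of 4 or 6 values, 6 held 1 value far from the others, and about 5% of sets do so by chance. In WKY against SD, the prefrontal cortex stood apart for Kcnq5 at -0.85. Against the other regions, WKY stood apart for Kcnj16 in the dorsal striatum at -2.15 and for Kcnj4 in the prefrontal cortex at 1.75. SHR stood apart in the ventral striatum for Kcnj6 at -1.93 and for Kcnk2 at 1.29, and in the vermis for Kcnj4 at -3.04. The WKY prefrontal array, which carried cerebellar transcripts, holds 1 value of both the Kcnq5 and the Kcnj4 set.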

How the results depend on the processing

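Over all alternatives, values of called genes kept direction and call in 841 of 884 cases for regions, 256 of 353 for comparisons of groups and 102 of 161 for the difference between SHR minus WKY and SD-PCB minus SD. Counts of called genes (limma) are given in the order SHR against WKY, SD-PCB against SD, WKY against SD and that difference between contrasts. Centred on array medians they were 10, 25, 17 and 21, against 41.3%, 74.3%, 56.3% and 69.5% of all probe sets. With no filter they were 8, 9, 7 and 17, against 22.5%, 35.7%, 15.8% and 42.6%. Array weights gave 13 in SHR against WKY (49.5%) and 10 in WKY against SD (27.1%), and quantile normalization 5 in the difference between contrasts (32.6%). With the array median as covariate each of the 4 was 0, with 4, 1, 5 and 0 genes at an unadjusted p under 0.05. Of all probe sets 5.49%, 0%, 0.477% and 0.0129% were called there. Without the replicate block, that is with region dropped, each was 0, with 1, 0, 1 and 1 at an unadjusted p under 0.05, and SHR against SD had 2. In these fits 12.035%, 13.646%, 4.5293% and 19.406% of all probe sets were still called, and 13.446% in SHR against SD. In the upper 25% by mean level 19 of the 37 genes remain. The counts there were 2 in SD-PCB against SD (35.8%), 6 in SHR against SD (41.4%) and 6 in the difference between contrasts (46.0%). There the dorsal striatum had 8 (4.48%), the ventral striatum 4 (1.93%), the prefrontal cortex 2 (3.58%) and the hippocampus 4 (2.58%). The substantia nigra/VTA had 4 (6.31%), the vermis 7 (12.8%) and both striatal regions together 7 (4.36%). At a log2 threshold of 0.5 the prefrontal cortex had 21 (15.2%), the hippocampus 12 (7.77%) and the substantia nigra/VTA 22 (23.6%).

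Leaving out 1 region gave 1 to 7 in SHR against WKY (20.7% to 36.9% of all probe sets). In SD-PCB against SD it gave 0 to 11 (23.3% to 33.2%), the 0 without the hippocampus, with 7 at an unadjusted p under 0.05. For SHR against SD it was 8 to 10 (24.3% to 31.7%) and for WKY against SD 2 to 7 (10.8% to 19.5%). The difference between contrasts had 5 to 15 (30.2% to 45.2%). Leaving out 1 group gave 14 to 17 in the dorsal striatum (4.65% to 5.59% of all probe sets). The ventral striatum had 4 to 7 (1.68% to 2.04%) and the prefrontal cortex 8 to 9 (4.37% to 5.06%). The hippocampus had 6 to 7 (2.23% to 3.11%) and the substantia nigra/VTA 11 to 13 (6.80% to 9.30%). The vermis had 11 to 17 (14.9% to 16.2%) and both striatal regions 10 to 14 (4.56% to 5.37%). Signs turned in 9 cases, whose cause was not tested. In SD-PCB against SD they were Kcnma1 by another probe set (-0.37) and Kcnmb4 with centred arrays (0.28). In the difference between contrasts, centred arrays turned Kcnj16 (-0.20), Kcnmb4 (-0.25) and Kcnip1 (-0.44), the covariate Kcna4 (0.0328) and Kcnj11 (-0.96), and another probe set Kcnip1 (-1.43). In the vermis it was Kcnab2 by another probe set (0.69). Dim signals limit the 22 untested genes.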
